A study of Mus musculus with 8 samples.

Results

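Transcripts of 7 gene families that run membrane traffic were examined for m6A, that is adenosine methylated at its N6 position within mRNA, in the mouse macrophage cell line RAW264.7. A gene was counted if its symbol begins with Rab, Tbc1d, Vps, Snx, Vamp or Exoc, or with Stx and a digit, and if at least 1 m6A peak lay in it in any of the 4 peak lists. This gave 71 of the 4317 genes with a peak, with 262 of the 20732 peaks. The cells had been exposed for 24 h to 100 µM of one of the compounds TBP, TCP and TIP, or had received none (control). TBP, TCP and TIP are the labels' own abbreviations, and the labels name no vehicle for the control. RNA fragments bound by an m6A antibody were sequenced (MeRIP-seq), and each condition has 1 immunoprecipitated library and 1 input library, and the inputs were not analysed here. Since no condition has a replicate, no test was possible and no p-value is given. The 95% intervals below are exact Clopper-Pearson intervals over genes or peaks unless said otherwise, and they cover counting error only.

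Rab proteins are small GTPases that mark the membranes of endosomes, the Golgi and transport vesicles, and are switched on by exchange factors and off by GTPase-activating proteins, most of which carry a TBC domain. Active Rabs recruit tethers such as the exocyst and the HOPS complex, sorting nexins and retromer shape and sort cargo into endosomal tubules, and SNARE proteins of the syntaxin and VAMP groups fuse the membranes. In macrophages this machinery carries phagosomes toward lysosomes, recycles receptors and delivers cytokines to the surface.

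The prefix rule also takes in genes that are not of the family the name recalls. Among the 26 Rab genes, 6 encode regulators or partners and not GTPases: Rab3il1, Rab5if, Rab11fip2, Rabep1, Rabgef1 and Rabif. Vps72 has the Vps prefix but encodes a subunit of a chromatin-remodelling complex.

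Sequence could be shown for 3 genes, since the sequence table used reaches only from 250 bases before to 50 bases after each gene's start. The stretches below are the parts of their 5′ peaks inside that window, at most 30 bases each, and are shown because each was listed in different conditions. The Rab1a peak, chr11:20201432-20201481, was listed with TBP and in no other list, and the stretch shown is chr11:20201432-20201461, plus strand. The Stx4a peak was listed with TCP and, overlapping it, in control (chr7:127841815-127841839, plus strand). The Snx17 peak was listed in control alone (chr5:31193277-31193301, plus strand), at -27 to -3 from the RefSeq start used. The Snx17 peak was also listed on the other strand. They run 5′ to 3′ and are from RefSeq, build GRCm38.p6.
Rab1a: ccattttgggtggaagcgatcactgagtgg
Stx4a: ggggggaagagaagggaattccaac
Snx17: gccttcccacctcggagttcaggcc
The motif GGACN was searched on the sense strand, with its cases GGACT and GGACA and GGACC, and so were AGACT and TGACT, and capitals would mark a match. No stretch held any of them, which says only that these letters are not in these windows. GGACN stood in 16.9% of 71 windows of 25 bases at 5′ peaks of all genes, and in 8.72% of 32851 windows of the same length at gene starts.

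The families differed in how many of their genes had a peak at all. Of the 212 protein-coding RefSeq genes that match the prefixes, 71 had a peak (33.5%, 27.2 to 40.3), and of all 21900 coding genes 4228 did (19.3%). The Vps genes had the highest share, 17 of 35. They were followed by the VAMPs with 3 of 8, the syntaxins with 5 of 15, the Rab genes with 26 of 82, the sorting nexins with 9 of 30, the Tbc1d genes with 8 of 30 and the Exoc genes with 3 of 12. The lists give no transcript levels, so a family whose genes are more often transcribed in these cells and one more often methylated cannot be told apart. Of 10 macrophage markers 7 had a peak, and of 19 markers of T cells, B cells, fibroblasts, epithelium and endothelium 0 did.

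The trafficking genes with a peak numbered 48 with TBP, 54 with TCP and 22 with TIP, against 38 in control. Their peaks numbered 85, 94 and 30 with TBP, TCP and TIP, against 53 in control. Relative to control, that was 1.42 times as many trafficking genes with TCP and 0.579 times with TIP, where the number of all genes with a peak was 1.37 and 0.722 times that of control. With TBP the ratio was the same for both to 3 digits. The number of trafficking genes thus moved in the same direction as the length of the whole list, which held 6285 peaks for TBP, 6981 for TCP and 3034 for TIP, against 4432 for control. Trafficking genes made up 1.53% of the genes with a peak in TBP (1.13 to 2.03), 1.59% in TCP (1.20 to 2.07) and 1.23% in TIP (0.771 to 1.85), against 1.53% in control (1.09 to 2.1), so these intervals overlap. Absence from a list does not show that a transcript was unmethylated, since the depth behind the lists is unknown.

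**Figure D1:**
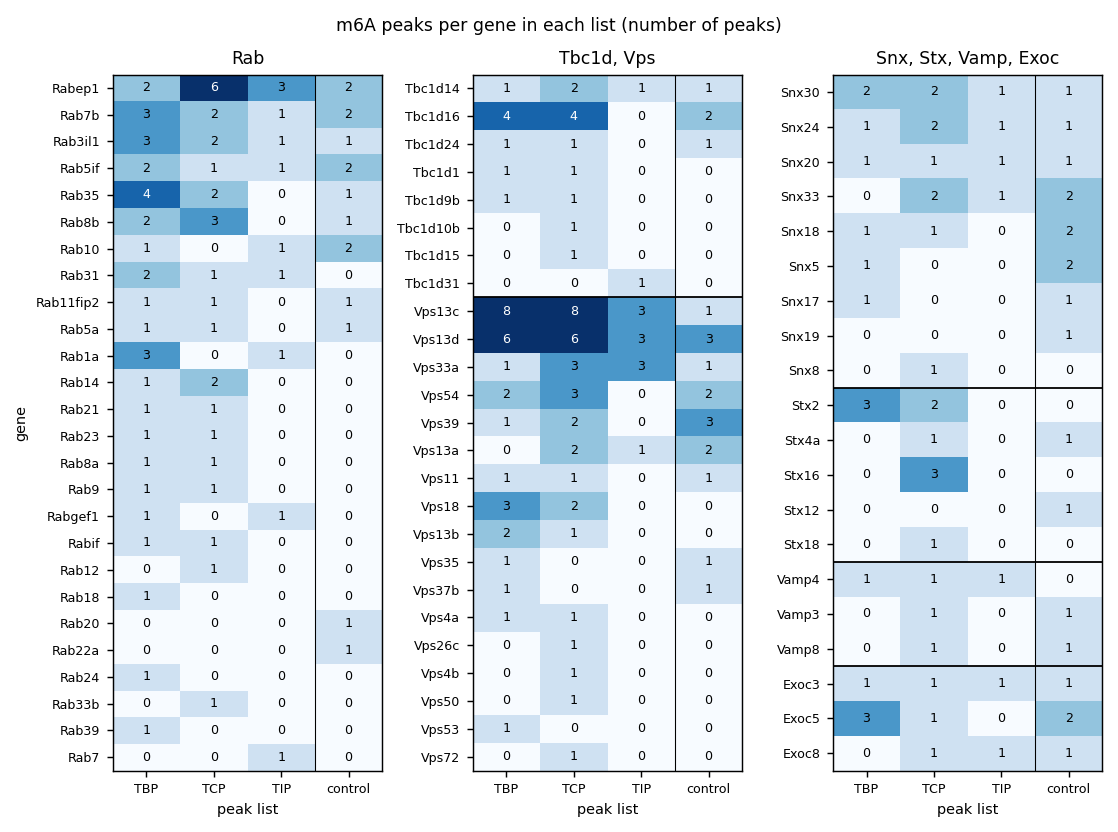
Number of m6A peaks in each of the 71 trafficking genes (rows, by family) in the TBP, TCP, TIP and control lists (columns), with darker cells for more peaks. Vps13c and Vps13d reach 8 and 6 peaks with TBP and with TCP, and the TIP column is the emptiest, with 22 genes marked.

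A gene with a peak under a compound but without one in control was called gained, and a gene with a control peak but without one under the compound was called lost. The 3 comparisons share the 1 control library. With TBP, 20 of 58 trafficking genes were gained (34.5%) and 10 were lost (17.2%), against 30.3% gained and 12.1% lost among all 3560 genes with a peak in TBP or control. With TCP, 25 of 63 were gained (39.7%) and 9 were lost (14.3%), against 34.8% and 10.5% of all 3801 genes. With TIP, 6 of 44 were gained (13.6%) and 22 were lost (50%), against 11.7% and 36.3% of all 2810 genes. Each of these 6 shares had an interval that takes in the value over all genes. The widest gap was in the TIP losses, whose interval was 34.6 to 65.4%. These counts move with list length. With each list cut to its 3034 best-scored peaks, the length of the TIP list, 11 of 36 trafficking genes were gained with TBP (30.6%) and 12 lost (33.3%), against 20.7% and 21.6% of all genes, so that losses outnumbered gains. With TCP 11 of 36 were then gained (30.6%) and 10 lost (27.8%), against 21.3% and 22% of all genes. With TIP 9 of 34 were gained (26.5%) and 12 lost (35.3%), against 20% and 23.8%. Many peaks share a score, and where the cut falls among tied peaks, score does not decide which of them stay.

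Of the 38 trafficking genes with a control peak, 28 also had one with TBP (73.7%, 56.9 to 86.6), 29 with TCP (76.3%, 59.8 to 88.6) and 16 with TIP (42.1%, 26.3 to 59.2). Over all 2480 genes with a control peak the shares were 82.7%, 83.9% and 58.9%, each inside the interval of the trafficking genes. At equal list lengths 13 of 25 were kept with TBP (52%, 31.3 to 72.2), 15 with TCP (60%, 38.7 to 78.9) and 13 with TIP (52%, 31.3 to 72.2). Over all genes these shares were 72.8%, 72% and 70.3%. The TBP value over all genes lies just above the interval of the trafficking genes, and those for TCP and TIP lie within theirs. Counted by peaks, 29 of 58 trafficking genes had more peaks with TBP than in control (50%) and 14 had fewer (24.1%), against 51.1% and 20.7% of all genes. With TCP 37 of 63 had more (58.7%) and 13 fewer (20.6%), against 57.6% and 17.8%, and with TIP 9 of 44 had more (20.5%) and 27 fewer (61.4%), against 19.3% and 54%. The shares with more or fewer peaks lay near those of all genes.

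**Figure D2:**
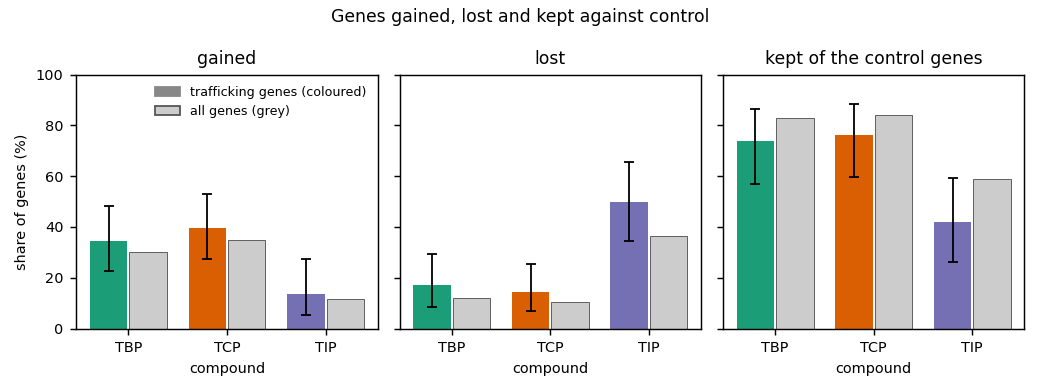
Share of genes (%) gained, lost and kept with TBP, TCP and TIP against control, for the trafficking genes (coloured bars, with 95% Clopper-Pearson intervals) and for all genes (grey bars). TIP has the lowest gained share, 13.6%, and the highest lost share, 50%, in the trafficking genes and keeps 42.1% of their control genes. With lists of equal length the lost share of the trafficking genes was 33.3% with TBP, 27.8% with TCP and 35.3% with TIP.

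The compounds were set beside each other at the same dose and time, over the 67 trafficking genes that any compound list holds. This made 3 pairs, with no test, and intervals by the normal approximation for paired shares that cover counting over genes. TIP had a peak in 22 of them and TBP in 48, a difference of -38.8 percentage points (-53.7 to -23.9), where over all genes it was -32.2. TIP against TCP, with 22 and 54 genes, differed by -47.8 points (-62.9 to -32.6), where over all genes it was -38.8. TCP, with 54 genes, and TBP, with 48, differed by 8.96 points, and the interval of -6.38 to 24.3 takes in 0. Over all genes that difference was 6.52 points (4.65 to 8.4). With lists of equal length, the trafficking genes with a peak numbered 24 with TBP, 26 with TCP and 22 with TIP, against 25 in control.

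A peak in all 4 lists was found in 12 of the 71 trafficking genes (16.9%, 9.05 to 27.7), against 29.7% of all 4317 genes. These were Rab3il1, Rab5if, Rab7b, Rabep1, Tbc1d14, Vps13c, Vps13d, Vps33a, Snx20, Snx24, Snx30 and Exoc3. With equal list lengths, 10 of the 12 still had a peak in every list, Rab7b and Vps13c being the other ones. A further 21 trafficking genes had a peak in 1 list (29.6%, against 29.2% of all genes). Another 21 had one in 2 lists (29.6%, against 21.2%) and 17 in 3 lists (23.9%, against 19.9%). The commonest pattern besides all 4 lists was TBP with TCP and neither TIP nor control, in 12 trafficking genes (16.9%, against 10.9% of all genes). It held the endosomal Rabs Rab14, Rab21 and Rab9, with Rab8a, Rab23 and Rabif, and also Tbc1d1, Tbc1d9b, Vps4a, Vps13b, Vps18 and Stx2.

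The next pattern, TBP and TCP with control and without TIP, held 11 trafficking genes (15.5%, against 13.0% of all genes): Rab5a, Rab8b, Rab11fip2, Rab35, Tbc1d16, Tbc1d24, Vps11, Vps39, Vps54, Snx18 and Exoc5. In Rab5a, the master GTPase of early endosomes, the TBP and control peaks had identical ends in the 5′ UTR, chr17:53483892-53483941, within a wider TCP peak. TCP alone listed another 11 trafficking genes (15.5%, against 14.3% of all genes), namely Rab12, Rab33b, Tbc1d10b, Tbc1d15, Vps4b, Vps26c, Vps50, Vps72, Snx8, Stx16 and Stx18. TBP alone listed 4, Rab18, Rab24, Rab39 and Vps53 (5.63%, against 9.68% of all genes), and TIP alone listed 2, Rab7 and Tbc1d31 (2.82%, against 1.37%). Control alone listed 4, Rab20, Rab22a, Snx19 and Stx12 (5.63%, against 3.78%). Control shared Vps35, Vps37b, Snx5 and Snx17 with TBP (5.63%, against 3.34% of all genes) and Stx4a, Vamp3 and Vamp8 with TCP (4.2%, against 3.5%). It shared Vps13a, Snx33 and Exoc8 with TCP and TIP (4.2%, against 2.0%) and Rab10 with TBP and TIP (1.41%, against 1.46%). Listed without control were Rab31 and Vamp4 with all 3 compounds (2.82%, against 3.54%) and Rab1a and Rabgef1 with TBP and TIP (2.82%, against 0.903%).

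The functional groups within the families were drawn up after the values had been seen, and their counts are given as description. Lists of unequal length stand behind them. Of all 4317 genes with a peak, 3130 had one with TBP, 3401 with TCP and 1791 with TIP, against 2480 in control. This also holds for the groups and families counted below. The early endosome Rabs had a peak in 5 of 7 genes, 3 with TBP, 3 with TCP and 1 with TIP, against 3 in control. Recycling and surface-delivery Rabs had one in 5 of 9 genes, 5 with TBP, 4 with TCP and 1 with TIP, against 3 in control. The late endosome Rabs had one in 3 of 4 genes, 2 with each compound and 1 in control. The Rabs of the ER and Golgi had one in 3 of 9 genes, 2 with TBP, 1 with TCP and 1 with TIP, against 0 in control.

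Rab35, a GTPase of fast recycling from early endosomes, had 4 peaks with TBP, 2 with TCP and 0 with TIP, against 1 in control. All 7 of its peaks lay in the 3′ UTR. The control peak (chr5:115645967-115646016) lay within a TBP peak and a TCP peak, so the additional peaks of the compounds were at other places in the same UTR. Rab8b, which directs vesicles to the plasma membrane, had 2 peaks with TBP, 3 with TCP and 0 with TIP, against 1 in control. Its control peak overlapped a TBP peak and none of the TCP peaks. Both genes were therefore higher in peak number than control with TBP and TCP and absent from the TIP list.

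Rab7b, a late endosomal Rab that acts in transport to the Golgi, had 3 peaks with TBP, 2 with TCP and 1 with TIP, against 2 in control. The control peaks in its 3′ UTR at chr1:131712566-131712590 and chr1:131713191-131713265 were both overlapped by TCP peaks, and the second also by the TIP peak. No TBP peak overlapped them: 1 TBP peak ended on the base before the first, and another was in the 5′ UTR.

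Rab31, which shuttles between the Golgi and endosomes, was with Vamp4 one of the 2 trafficking genes listed with all 3 compounds and not in control. It had 2 peaks with TBP, 1 with TCP and 1 with TIP, and chr17:65654229-65654253 in the 3′ UTR was covered in all 3. Rab1a, which acts between the ER and the Golgi, had 3 peaks with TBP and 1 with TIP, none with TCP and none in control. Its TBP peaks lay in the 5′ UTR, in exon 6 of 6 and in the 3′ UTR, and the TIP peak lay in exon 3, so no place was shared. Another gene on the same strand, Gm51885, also covers the TIP peak.

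Rab20, which acts in phagosome maturation, and Rab22a, an early endosomal GTPase, were listed in control alone, with 1 peak each. They ranked 3291 and 3772 among the 4432 control peaks by the authors' score, where rank 1 is the highest and equal scores share a rank. Rank 3772 stands for the lowest score in the control list, so no control peak scored below the Rab22a peak. Rab7, the GTPase of late endosomes and lysosomes, was listed with TIP alone, and its 1 peak spanned 3715 bp. Whether such a span crosses introns was not examined. Of the 262 peaks, 5 spanned over 500 bp, and the other 4 were in Vps13c.

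Of 11 Rab exchange factors and effectors 5 had a peak, 5 with TBP, 4 with TCP and 3 with TIP, against 3 in control. Rabep1, the Rab5 effector rabaptin-5, had 2 peaks with TBP, 6 with TCP and 3 with TIP, against 2 in control, and had the most peaks of the Rab family, 13 in all. It had 2 places covered in all 4 lists, a place being a run of peaks that overlap each other in a chain, 1 in exon 9 of 18 and 1 in the 3′ UTR, where the TCP peak ranked 348 of 6981 and the control peak 486 of 4432. The TCP list added a peak in exon 3 and 2 more in the 3′ UTR. Rab3il1, an exchange factor for Rab8, had 3 peaks with TBP, 2 with TCP and 1 with TIP, against 1 in control, all in the 3′ UTR, with 1 place covered in all 4 lists.

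Rab5if, named for its interaction with Rab5, had 2 peaks with TBP, 1 with TCP and 1 with TIP, against 2 in control. Its strongest peak ranked 205 with TBP, 618 with TCP and 688 with TIP, against 239 in control, and all 4 overlapped in the 3′ UTR at chr2:156873168-156873217. Each of its 6 peaks was also listed at an overlapping place on the other strand, so the strand of origin cannot be told apart there. Rabgef1, the Rab5 exchange factor rabex-5, had 1 peak with TBP and 1 with TIP, and none with TCP or in control. Both lay in exon 9 of 9 and overlapped, and the TIP peak ranked 17 of 3034, the best rank of any trafficking peak in that list. The TIP list holds only 44 distinct scores, so many of its peaks share a rank, and how many share rank 17 is not given here. The 6 genes gained with TIP had a median best rank at 84.9% of the list, against 64.6% for all genes gained with TIP, and the other 5 had their best peak at rank 1281 to 2704 of 3034. Rank 2704, that of Rab31, Vamp4 and Tbc1d31, stands for the lowest score in the TIP list. With shared ranks the scale therefore ends at 89.1% of that list.

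The Tbc1d genes, mostly Rab GTPase-activating proteins, were listed for 5 genes with TBP, 7 with TCP and 2 with TIP, against 3 in control. Tbc1d16, which acts on Rab4, had 4 peaks with TBP, 4 with TCP and 0 with TIP, against 2 in control. In exon 3 of 12 the TBP and TCP lists gave the same 2 intervals, chr11:119208848-119208897 and chr11:119208973-119209047. The 2 control peaks lay between these intervals and touched their edges without overlap. The other 2 peaks with each compound lay in the 3′ UTR, where control had none, and 1 pair of them overlapped.

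Tbc1d14, which takes part in autophagosome formation from recycling endosomes, had 1 peak with TBP, 2 with TCP and 1 with TIP, against 1 in control. All lay in exon 2 of 14, and the TIP and control peaks had identical ends, chr5:36571348-36571422. Tbc1d24, which works in synaptic vesicle traffic in neurons, had 1 peak with TBP, 1 with TCP and 0 with TIP, against 1 in control. These 3 peaks of 25 bp followed each other base to base without overlap, so the gene counts as kept with TBP and TCP while no place is shared. Tbc1d1, a GTPase-activating protein of glucose-transporter vesicles in muscle, had 1 overlapping 3′ UTR peak with TBP and TCP and none with TIP or in control. Tbc1d31 was listed with TIP alone.

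**Figure D3:**
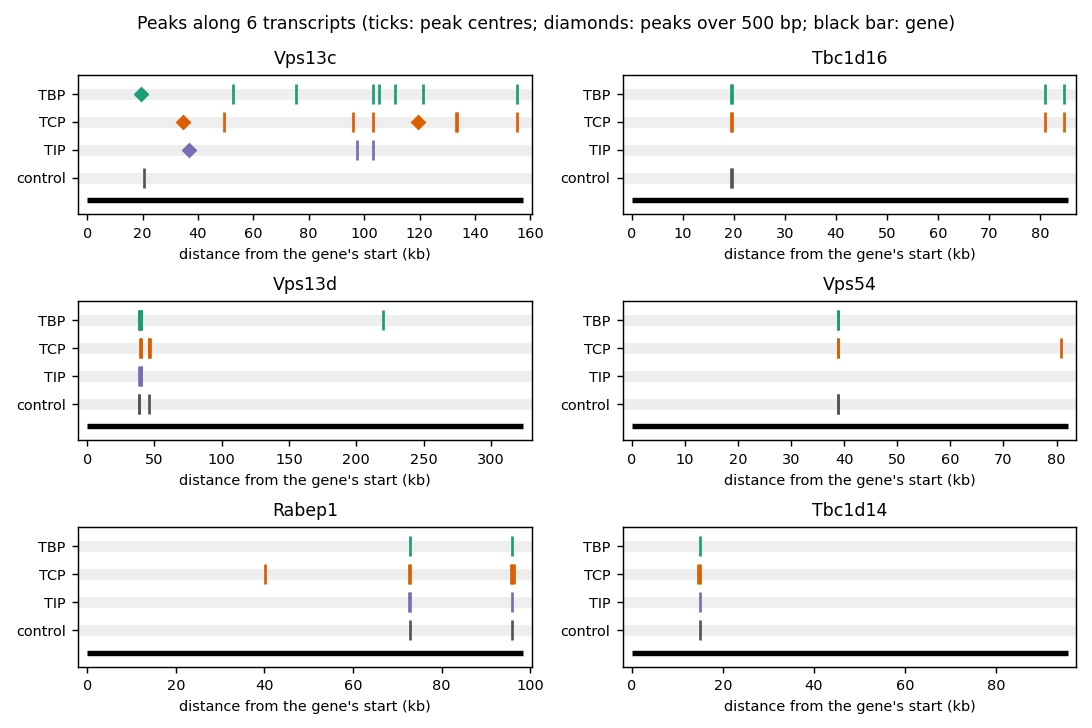
Peak centres along 6 transcripts (x axis, distance from the gene's start in kb) in the TBP, TCP, TIP and control lists (rows), with ticks for peaks, diamonds for peaks over 500 bp and a black bar for the gene. Vps13d, Vps54, Tbc1d14, Tbc1d16 and Rabep1 show ticks stacked at the same exon. Most Vps13c ticks are spread along the gene, but TBP, TCP and TIP ticks meet in exon 54, and TBP and TCP ticks in the 3′ UTR.

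The Vps genes carried 86 of the 262 peaks and had the most exon peaks, 56 against 30 in 3′ UTRs. The 4 VPS13 genes, which encode long bridge-like proteins that move lipids between membranes, held 46 of these peaks, 43 of them in exons outside UTRs. All 4 VPS13 genes had a peak, with 16 peaks with TBP, 17 with TCP and 7 with TIP, against 6 in control. Without them, 27 of 40 Vps peaks were in 3′ UTRs. Vps13c had 8 peaks with TBP, 8 with TCP and 3 with TIP, against 1 in control, the widest difference between lists among the trafficking genes. Of these 20 peaks 18 were in exons of its 85, and 4 spanned 1885 to 3932 bp. The 1 control peak, in exon 5, was overlapped by none of the compound peaks, but a TBP peak of 1923 bp ended on the base before it. The strongest Vps13c peak, in exon 54 with TBP, ranked 254 of 6285 and overlapped a TIP peak. Exon 54 also held a TCP peak, apart from these.

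Vps13d, of which the peaks were concentrated in a few exons, had 6 peaks with TBP, 6 with TCP and 3 with TIP, against 3 in control. Exon 19 of 70 held 5 of the TBP peaks, 3 of the TCP peaks, all 3 TIP peaks and 2 control peaks. Exon 21 held the other 3 TCP peaks and the other control peak, which overlapped 2 of them. A place in exon 19, chr4:145156514-145156588 in the TIP list, was also covered with TBP and in control, and not with TCP.

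Among the tethers, HOPS and CORVET subunits had a peak in 4 of 8 genes. Vps33a, which clasps SNAREs in both complexes, had 1 peak with TBP, 3 with TCP and 3 with TIP, against 1 in control, all in the 3′ UTR. Its control peak at chr5:123530559-123530658 was overlapped by a peak of each compound. Vps18, a core subunit of both complexes, had 3 peaks with TBP, 2 with TCP and 0 with TIP, against 0 in control, and 1 interval, chr2:119293412-119293461, was identical with TBP and TCP. Vps39, a HOPS subunit, had 1 peak with TBP, 2 with TCP and 0 with TIP, against 3 in control. Vps18 and Vps39 are named here after their values were seen.

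GARP and EARP, which tether vesicles at the Golgi and recycling endosomes, had a peak in 3 of 5 genes. Vps54, the GARP-specific subunit, had 2 peaks with TBP, 3 with TCP and 0 with TIP, against 2 in control. The 2 control peaks in exon 7 of 23 were each overlapped by a TBP peak, while the TCP peaks there began at the base after them. Retromer and retriever had a peak in 2 of 6 genes, Vps35 and Vps26c, and no peak with TIP. The ESCRT subunits and VPS4 ATPases of multivesicular body formation had one in 3 of 9 genes, Vps37b, Vps4a and Vps4b, again with no peak with TIP. The TIP list held 1791 of all 4317 genes with a peak, the fewest of any list. The Vps37b peaks were also listed on the other strand.

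The exocyst, the tether of vesicles at the plasma membrane, had a peak in 3 of 9 subunit genes. Exoc3 had 1 peak with each of TBP, TCP and TIP and 1 in control, all within exon 4 of 13. It gave the best-ranked trafficking peak with TBP, rank 203 of 6285, and with TCP, rank 99 of 6981, while it ranked 1805 of 3034 with TIP, against 1698 of 4432 in control. The control peak lay inside the TCP peak, and the TBP and TIP peaks lay apart from it. Exoc5 had 3 peaks with TBP, 1 with TCP and 0 with TIP, against 2 in control, at the end of the coding sequence and in the 3′ UTR. Exoc8, a gene with 1 exon, had 1 peak with TCP and 1 with TIP, against 1 in control, and none with TBP. These 3 peaks overlapped.

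The sorting nexins were the family with more genes in control than with any compound, 6 with TBP, 6 with TCP and 4 with TIP, against 8 in control. None was gained with TBP or TIP, and 1, Snx8, was gained with TCP. Lost sorting nexins numbered 2 of 8 with TBP, 3 of 9 with TCP and 4 of 8 with TIP. With 0, 1 and 0 genes gained and these losses, the intervals of all 6 shares take in the shares over all genes, which were 30.3%, 34.8% and 11.7% gained and 12.1%, 10.5% and 36.3% lost. Of their 31 peaks 26 lay in 3′ UTRs. Snx30, of the membrane-bending SNX-BAR group, had 2 peaks with TBP, 2 with TCP and 1 with TIP, against 1 in control, and the TIP and control peaks had identical ends, chr4:59899140-59899214, and overlapped a peak with TBP and one with TCP.

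Snx24, a small PX-domain protein, had 1 peak with TBP, 2 with TCP and 1 with TIP, against 1 in control, with 1 place covered in all 4 lists. Snx20, which binds the adhesion receptor PSGL-1, had 1 peak in each list. The TBP, TCP and control peaks overlapped, and the TIP peak began on the base after them. Snx33, an SH3-domain nexin of endocytosis, had 2 peaks with TCP and 1 with TIP, against 2 in control, and none with TBP. Snx19, which tethers the ER to endolysosomes, was listed in control alone, with 1 peak in exon 1 of 11 at rank 1233 of 4432.

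The SNARE genes were listed most with TCP, and so were all genes. Genes with a peak numbered 3130 with TBP, 3401 with TCP and 1791 with TIP, against 2480 in control. Syntaxins with a peak numbered 1 with TBP, 4 with TCP and 0 with TIP, against 2 in control. Stx2, a plasma membrane syntaxin, had 3 peaks with TBP and 2 with TCP, and none with TIP or in control. Stx16, a syntaxin of the trans-Golgi network, had 3 peaks with TCP and none in the other lists. Stx4a, another plasma membrane syntaxin, had the 5′ UTR peak shown above with TCP and in control, and no peak with TBP or TIP. Stx12, the recycling endosome syntaxin 13, was listed in control alone, at rank 3772 of 4432, the lowest score in that list.

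VAMPs with a peak numbered 1 with TBP, 3 with TCP and 1 with TIP, against 2 in control. Vamp4, of the trans-Golgi network and endosomes, had 1 peak with each compound and 0 in control. The TBP peak was in exon 4 of 8, and the TCP and TIP peaks met end to end in the 3′ UTR, so no place was shared by any pair. Vamp3, of recycling endosomes, had 1 peak with TCP and 1 in control, 25 bp each and apart from each other. Vamp8, of late endosomes and lysosomes, had 1 peak with TCP and 1 in control with identical ends, chr6:72385323-72385397.

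By annotation class, 140 of the 262 peaks lay in 3′ UTRs (53.4%, 47.2 to 59.6), 112 in exons outside UTRs and 10 in 5′ UTRs. This interval treats each peak as separate, although the pooled lists can hold the same place more than once, so it is too narrow. Over all 20732 peaks, 49.7% lay in 3′ UTRs. Without the 4 VPS13 genes, a choice made after seeing the data, 137 of 216 lay in 3′ UTRs (63.4%). Some families had mostly 3′ UTR peaks, namely 26 of 31 for Snx, 10 of 12 for Stx, 6 of 7 for Vamp and 57 of 88 for Rab. Others had mostly exon peaks, namely 56 of 86 for Vps, 16 of 25 for Tbc1d and 9 of 13 for Exoc. Without the VPS13 genes, however, 27 of 40 Vps peaks lay in 3′ UTRs. Tbc1d16 and Tbc1d14 held 6 and 5 of the Tbc1d exon peaks, and the Exoc peaks come from 3 genes. The 3′ UTR share was 54.1% with TBP, 56.4% with TCP and 43.3% with TIP, against 52.8% in control, and the intervals overlapped. Without the VPS13 genes the share with TCP was 67.5%. Of the exon peaks, 85 of 112 lay in internal exons (75.9%), against 60.5% over all genes. Without the VPS13 genes that share was 60.9% of 69. The 3′ UTR peaks lay a median of 1453 bp from the annotated end of the gene, against 1637 bp over all genes.

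**Figure D4:**
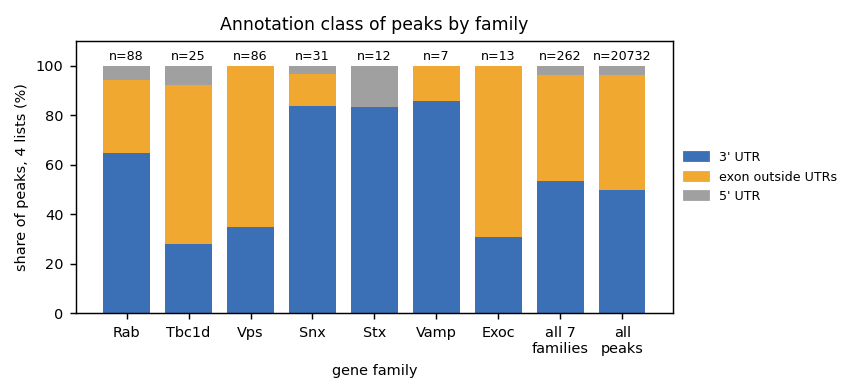
Share of peaks (%, 4 lists together) in 3′ UTRs, in exons outside UTRs and in 5′ UTRs for each family, for all 7 families and for all peaks, with the number of peaks above each bar. Snx, Stx and Vamp bars are mostly 3′ UTR, and Vps, Tbc1d and Exoc bars mostly exon. Without the VPS13 genes, 27 of 40 Vps peaks were in 3′ UTRs.

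Peaks were also compared by place, as an overlap of at least 1 bp on the same strand. Of the trafficking peaks 22 of 85 with TBP overlapped a control peak (25.9%, 17.0 to 36.5), 26 of 94 with TCP (27.7%, 18.9 to 37.8) and 11 of 30 with TIP (36.7%, 19.9 to 56.1). Over all peaks the shares were 40%, 35.4% and 51.8%, of which the TBP value lies above the interval of the trafficking peaks and the other 2 lie within theirs. The intervals in this paragraph treat each peak as separate, although many peaks share a gene, so they are too narrow. Of the 85 TBP peaks, 16 lay in VPS13 genes, and the share without these genes is not given here. The TBP share was 37.5% at equal list lengths (21.1 to 56.3), against 55.9% over all peaks, which lies within that interval. Where at least 50% of the TBP peak had to overlap, it was 16.5% (9.31 to 26.1), against 32.5%. Of the genes kept with a compound, 19 of 28 with TBP, 22 of 29 with TCP and 11 of 16 with TIP had a peak at a control place, that is 67.9%, 75.9% and 68.8%, against 80.2%, 78.8% and 75.6% of all kept genes. The other kept genes were listed at other places.

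Merging overlapping trafficking peaks of up to 500 bp gave 169 places. Of these 115 were covered in 1 list (68.0%, against 60.4% over all genes) and 8 in all 4 lists (4.73%, against 10.7%). The 8 lay in Rab3il1, Rab5if, Rabep1, which had 2, Snx24, Snx30, Tbc1d14 and Vps33a. The trafficking genes also had fewer peaks each, 1.77 with TBP, 1.74 with TCP and 1.36 with TIP, against 1.97, 2.02 and 1.67 for all genes in those lists. Kept trafficking genes had their best peak at a median of 36.6% of the list with TBP, 31.8% with TCP and 53.6% with TIP, where 0% would be the top, against 23.4%, 22.1% and 33.5% for all kept genes. What part these lower ranks have in the smaller number of shared places was not tested.

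**Figure D5:**
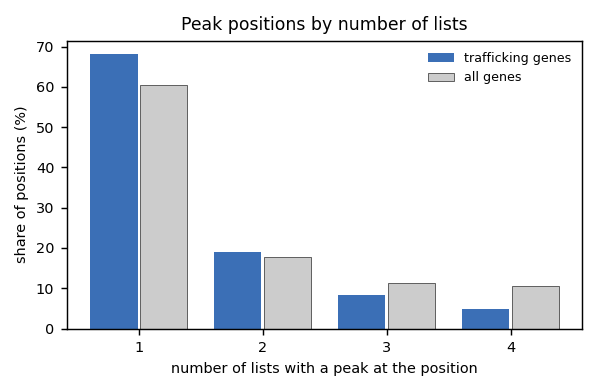
Share of places (%) covered by a peak in 1, 2, 3 or all 4 lists, for trafficking genes (blue) and all genes (grey). Places in 1 list make up 68.0% for trafficking genes against 60.4% for all genes, and places in all 4 lists 4.73% against 10.7%.

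The wider pathway was described with 7 lists of 184 other genes of endosomal traffic, of which 61 had a peak, 44 with TBP, 50 with TCP and 22 with TIP, against 38 in control. With TBP 12 of 50 were gained (24%) and 6 lost (12%), against 30.3% and 12.1% of all genes. With TCP 17 of 55 were gained (30.9%) and 5 lost (9.09%), against 34.8% and 10.5%, and with TIP 4 of 42 were gained (9.52%) and 20 lost (47.6%), against 11.7% and 36.3%. Of the Rab exchange factors and chaperones outside the prefixes 14 of 32 had a peak, of the other Rab effectors and GTPase-activating proteins 11 of 31, of the adaptors, clathrin and ARF regulators 10 of 32, and of the ESCRT and endosomal sorting genes 9 of 22. A further 6 of 29 other SNARE and fusion genes, 6 of 20 phosphoinositide enzymes and 5 of 18 WASH, COMMD and retriever partners had one. The genes with a peak in all 4 lists numbered 16 of 61 (26.2%, against 29.7% of all genes), among them Eea1, the tether of early endosomes, Mon1b, of the Rab7 exchange factor, and Arf6, a GTPase of endosomal recycling. Plekhm1, a Rab7 effector, had 4 peaks with TBP, 5 with TCP and 1 with TIP, against 1 in control. Eea1 had 1 peak in each list, and Arf6 had 2 with TBP, 4 with TCP and 4 with TIP, against 2 in control. These 4 genes were chosen after their values were seen.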

How the data were processed

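Per the labels' protocols, RNA of RAW264.7 cells was immunoprecipitated with an anti-m6A antibody and fragments of 40 to 60 nt were selected. The submitters' processing notes name HISAT2 2.1.0, ChIPseeker 1.26 and HOMER 4.11, among other tools, and give GRCm38 (mm10) as the build. Which program called the peaks, at what cutoff and against which input, is not given in the sources used here. The deposited lists hold, for every peak, where it lies, its strand and class, the nearest gene and a score. This score of the authors comes without a scale and with a different floor in each list, so it served only for ranking or filtering within a list. Read depth per library is unknown.

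From the lists, each peak was given the gene that holds it on its strand: the gene of the exon annotation (45% of peaks), else the nearest gene (37.7%), else a single RefSeq gene over it (15.8%). This placed 98.4% of 20732 peaks. The host differed from the nearest-gene column for 77 of the 262 trafficking peaks. For 5 trafficking genes no table gave the strand, and it was taken from where their 3′ UTR peaks lie, a rule added after the Vps37b peaks had been seen on both strands. Overlaps used bedtools 2.31.1, and intervals scipy 1.17.1 under Python 3.11.15. The overlap and placing steps were tested on simulated lists. Most of the peaks placed there carried the right gene in their annotation, and all lay in genes of known strand. The strand rule for the 5 genes was therefore not tested. Genes named are the 4 with the most peaks per family, those in all compound lists but not control, those in control alone, the 8 with the widest difference between lists and the 5 with the best mean rank in all 4 lists; others are named for presence patterns or after their values were seen. The members, gene lists and tests were chosen with earlier results of these data known. Motifs around peaks were not analysed here beyond the RefSeq start windows, as no genome was used. Alternatives tried were the nearest gene, peaks at or above the list's median score, equal list lengths, no peaks over 500 bp, core family members and a stricter overlap.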

Additional observations from a re-analysis of the deposited data

Results flagged for a closer look

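Some counts moved in opposite directions with different compounds, each against the same control library. None of these differences was tested, since each condition has 1 library. The trafficking genes with a peak numbered 48 with TBP and 54 with TCP, above control, and 22 with TIP, below it, against 38 in control. Their peaks numbered 85 with TBP, 94 with TCP and 30 with TIP, against 53 in control. The whole lists differ in length in the same directions.

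The same held for 6 of the 71 trafficking genes. How many of all genes did so was not counted. The whole lists are longer than control with TBP and TCP and shorter with TIP. Rab35 had 4 peaks with TBP, 2 with TCP and 0 with TIP, against 1 in control. Rab8b had 2, 3 and 0, against 1. Rab7b had 3, 2 and 1, against 2. Tbc1d16 had 4, 4 and 0, against 2. Vps54 had 2, 3 and 0, against 2. Exoc5 had 3, 1 and 0, against 2.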

How the results depend on the processing

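No paired analysis was possible because each condition has 1 immunoprecipitated library. Counts were called moved when they differed from the reported one by over 1.5 times, and shares when they left its interval. Taking the nearest gene, core family members or no peaks over 500 bp moved none of the values recomputed. At or above the list's median score, the trafficking genes with a peak numbered 30 with TBP, 31 with TCP and 8 with TIP, against 20 in control, and their peaks 39, 41 and 9, against 21. There 3 genes were gained with TIP, 4 genes had a peak in all lists, and the 3′ UTR share in control was 71.4%. With equal list lengths, the genes numbered 24 with TBP and 26 with TCP, against 25 in control, and the peaks 32 and 33, against 28. There 11 genes were gained and 12 lost with TBP, 11 gained and 10 lost with TCP, 9 gained and 12 lost with TIP, and 37.5% of TBP and 39.4% of TCP peaks overlapped a control peak. Requiring an overlap of at least 50% of the compound's peak gave 16.5% for TBP. Leaving out the VPS13 genes, added after seeing the data, gave a 3′ UTR share of 67.5% with TCP.

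At equal list lengths the number of trafficking genes with a peak was thus below control with TBP and above it by 1 with TCP. Unknown depth, single libraries, a score without a scale and peaks of 25 bp limit every count, and presence of a peak, transcript level and depth cannot be told apart.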
